A study of Mus musculus with 12 samples.

Results

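The probes described here are those of the apolipoprotein genes, led by Apoa4, on an array of mouse liver during fasting. They are the probe for Apoa4 and every probe that the scanner files name with Apo followed by a, b, c, e, h or m and an optional number. This gave 3 of the 20280 probes analysed, 1 each for Apoa4, Apoa1 and Apoe, or 3 of the 6567 genes named on the array. The patterns for apolipoproteins B, C, H and M matched no probe name, and neither did Apoa2 or Apoa5, so that these genes are not analysed here. Apoa4 was chosen by its rise over the fed livers in these same data, the other members by name alone. The difference of Apoa4 from fed is therefore given as a description without a test.

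RNA came from the livers of male FVB mice, an inbred strain, at 6 weeks of age. One group was fed and the others had their chow removed for 12, 24 or 72 hours, and the labels name no genetic change or other agent in any group. The animals were housed in metabolic cages and kept warm with a lamp. Each of the 12 arrays, 3 per group, carried the Cy3-labelled RNA of 2 pooled livers beside a Cy5-labelled common reference made from 6 fed livers. The spread between arrays thus holds that between pools and that of the arrays themselves, such as their brightness, and is not that between mice. According to the numbers in the labels the reference holds the same 6 fed livers that were pooled in pairs for the fed arrays. The series' design text calls the RNA intestinal in 1 place, whereas every sample label calls it liver.

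Apolipoproteins are the protein part of lipoproteins, the particles that carry triglycerides and cholesterol in blood. Apoa1 is the main protein of high-density lipoprotein and activates the enzyme that esterifies its cholesterol. Apoe is a ligand through which the liver takes up lipoprotein remnants. Apoa4 is secreted with triglyceride-rich particles, mainly by the small intestine and, in rodents, also by the liver. Apoa1 and Apoa4 lie in 1 gene cluster together with Apoc3 and Apoa5.

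In the RefSeq annotation of GRCm38.p6, Apoa1 spans chr9:46228630-46230469, Apoc3 chr9:46233050-46235636, Apoa4 chr9:46240844-46243458 and Apoa5 chr9:46268608-46271921. The annotated starts of Apoa1 and Apoa4 are 12214 bases apart. Apoe lies elsewhere, at chr7:19696244-19701310. The 250 bases before the starts of Apoa4 and Apoa1 are shown because both genes belong to this cluster and were measured on the same arrays. Both are read 5′ to 3′ on the + strand, from chr9:46240594-46240843 for Apoa4 and chr9:46228380-46228629 for Apoa1, and capitals mark the motif matches described next.
Apoa4: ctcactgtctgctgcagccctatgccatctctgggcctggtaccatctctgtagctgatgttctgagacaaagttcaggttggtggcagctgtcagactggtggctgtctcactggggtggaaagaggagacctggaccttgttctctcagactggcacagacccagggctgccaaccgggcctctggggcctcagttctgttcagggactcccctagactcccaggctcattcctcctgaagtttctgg
Apoa1: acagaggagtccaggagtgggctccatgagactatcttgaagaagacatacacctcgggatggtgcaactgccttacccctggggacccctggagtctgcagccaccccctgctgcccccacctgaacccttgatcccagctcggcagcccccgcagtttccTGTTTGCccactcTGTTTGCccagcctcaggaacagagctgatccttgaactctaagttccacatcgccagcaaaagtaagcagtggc
Motifs of 7 kinds were searched on both strands of these windows. The Apoa4 window held none of them. The Apoa1 window held the forkhead-type motif TGTTTGC in 2 places that do not overlap, beginning 88 and 75 bases before the start, a motif present in 4.30% of the 32851 promoter windows of the same length. The windows of the 2 annotated starts of Apoa5 overlap, and both held 1 and the same TGTTTGC and 1 and the same TATAAA, the letters of a TATA box. Of the 3 annotated starts of Apoe, 1 had TATAAA in 2 overlapping places, 1 on each strand, and the other starts held no motif. The other letters searched were AGGTCA, present in 14.0% of all windows, CAAAGTC in 3.84%, TGTTTAC in 3.17%, TGACGT in 6.47%, TATAAA in 12.4% and CCAAT in 33.8%. A match is a description of the letters in the window and not a binding site.

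The arrays were not equally bright. On replicate 2 of the 12-hour group and replicate 3 of the 24-hour group the sample channel covered a narrow range, with the brightest 0.5% of probes above 1417 and 2512, against 9257 to 28847 on the other 10 arrays. These 2 low-signal arrays were quantified on the same day as fed replicate 1. The remaining 12- and 24-hour arrays shared another day, and the 72-hour arrays shared theirs with fed replicates 2 and 3. The differences of Apoa4 and the counts of probes that passed are given below with and without the low-signal arrays. Without them, no 12- or 24-hour array shared a day of quantification with a fed array. Early fasting and day therefore cannot be told apart in that setting. Over the 11150 probes that passed the filter on dim spots and had a value on every array, replicate 3 of the 24-hour group correlated with replicate 3 of the 72-hour group at r = -0.31, and among the other 10 arrays the lowest correlation was -0.02. The direction of all ratios, sample over reference, follows the dyes stated in the labels.

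Apoa4 was the only one of the 3 probes whose spot the software flagged as saturated on no array. In fed liver the median signal of its spot in the sample channel was 1823, 3389.5 and 3004 on replicates 1 to 3. The 12-hour fasted livers read 14490, 1111 and 14910. Those fasted for 24 hours read 26881, 42139 and 771, and those fasted for 72 hours 30464, 63926 and 36312.5. The 7 fasted arrays of normal brightness thus lay above all fed arrays, and both low-signal arrays lay below them. The reference signal of the same spot varied between 848 and 2954.5 over all 12 arrays. On replicate 2 of the 72-hour group 15.5% of the pixels of the Apoa4 spot were at the scanner's ceiling, so that its value there may be too low.

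The ratio of sample over reference, background-subtracted but not normalised, was 1.31 to 1.55 on the fed arrays and 11.2 to 49.1 on the fasted arrays of normal brightness. On the low-signal arrays it was 1.11 at 12 hours and 0.92 at 24 hours. Normalisation between channels sets such differences in overall brightness aside, and the normalised values of these 2 arrays rest on it.

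On the normalised log2 scale of sample over reference, the level of Apoa4 in fed liver was 0.31, 0.28 and 0.02. It was 3.96, 2.48 and 2.61 after 12 hours. It was 3.91, 4.01 and 1.39 after 24 hours, and 3.42, 4.27 and 3.72 after 72 hours. Every fasted array, including both of low signal, lay above every fed array. The group means were 0.20 ± 0.16 in fed liver, 3.02 ± 0.82 at 12 hours, 3.10 ± 1.48 at 24 hours and 3.80 ± 0.43 at 72 hours (SD, n = 3 arrays). In this order of levels, fed stood apart from the rest, whereas the 3 fasted groups overlapped.

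**Figure D1:**
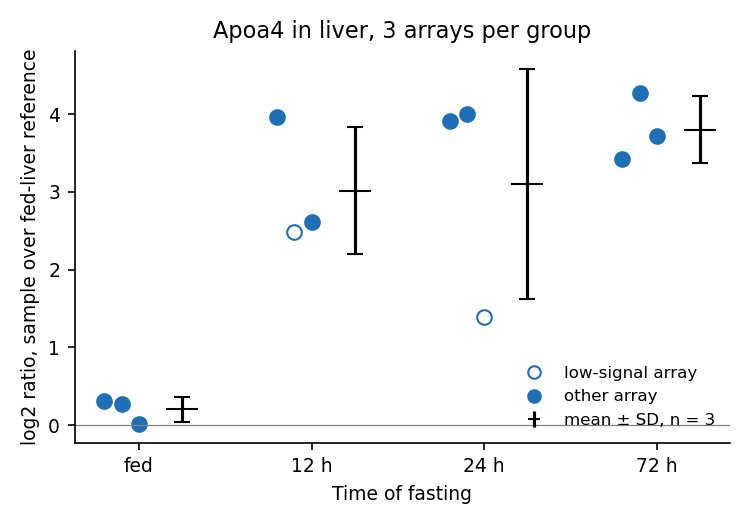
Normalised level of Apoa4 on each of the 12 arrays, as log2 of sample over the fed-liver reference (vertical axis), by time of fasting (horizontal axis). Points are arrays, open points the 2 low-signal arrays, and bars the mean ± SD of 3 arrays; the lowest fasted array, at 1.39, lies above the highest fed array, at 0.31.

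Compared with fed liver, Apoa4 was higher by 7.05-, 7.49- and 12.1-fold after 12, 24 and 72 hours, respectively. These folds correspond to differences of 2.82, 2.90 and 3.60 on the log2 scale, each with a standard error of 0.63. Without the low-signal arrays they were 3.09 ± 0.34, 3.76 ± 0.34 and 3.60 ± 0.30 (SE), or 8.49-, 13.5- and 12.1-fold. The rise at 24 hours was therefore the value that the low-signal arrays changed by the largest factor. Since bulk liver RNA was measured, a change in the RNA per cell and a change in the number of cells of a type cannot be told apart.

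Among all probes tested, ordered by the size of their rise over fed, Apoa4 ranked 3 at 12 hours, 2 at 24 hours and 6 at 72 hours. Ahead of it at 12 hours were Mt2 at 12.2-fold and Mt1 at 8.09-fold, which encode the metal-binding metallothioneins. Next after it came Egr1, an immediate-early transcription factor, at 7.03-fold. At 24 hours Mt2, at 8.98-fold, was the sole probe ahead, and without the low-signal arrays Apoa4 ranked 1. At 72 hours the first places were taken by Ctsl, a lysosomal protease, at 20.2-fold and by Got1, the cytosolic aspartate aminotransferase, at 16.7-fold. These ranks describe the values that chose the gene.

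The difference between fed and fasted arrays was also read within each day of quantification. On the day of the low-signal arrays, the 12-hour array lay 2.17 and the 24-hour array 1.09 above the fed array on the log2 scale, with 1 array per group. On the day of the 72-hour arrays these lay 3.66 above the 2 fed arrays. With the day as a block in the fit, the difference from fed came to 1.59, 1.67 and 3.66 in time order. Within a day the comparison of the 2 early groups with fed rests on the 2 low-signal arrays and fed replicate 1 alone.

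The steps between fasting times were not used to choose the gene and could be tested. From 12 to 24 hours the log2 level of Apoa4 differed by 0.09, with a 95% interval of -1.30 to 1.47 (limma, adjusted p = 0.997). From 24 to 72 hours it differed by 0.70, with an interval of -0.69 to 2.08 (limma, adjusted p = 1.00). Neither step exceeded the spread between arrays, and the intervals leave room for a change of more than 2-fold in both. No probe of all those tested passed in either step (0% of probes in each, by the rule of an adjusted p under 0.05 together with 1.4-fold), while 190 and 687 probes had an unadjusted p under 0.05. Leaving out the low-signal arrays, 0 and 262 probes passed. In this setting the first step of Apoa4 was 0.67 (-0.14 to 1.48, limma, adjusted p = 0.998). The second turned to -0.16 (-0.90 to 0.58, limma, adjusted p = 0.803). The first of these compares just the 2 arrays of each early group that shared a day, so that 0.67 is itself a difference within that day. The second cannot be read within a day, since no 24-hour array shared a day with a 72-hour array. The 262 probes that passed in it therefore also compare different days.

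**Figure D2:**
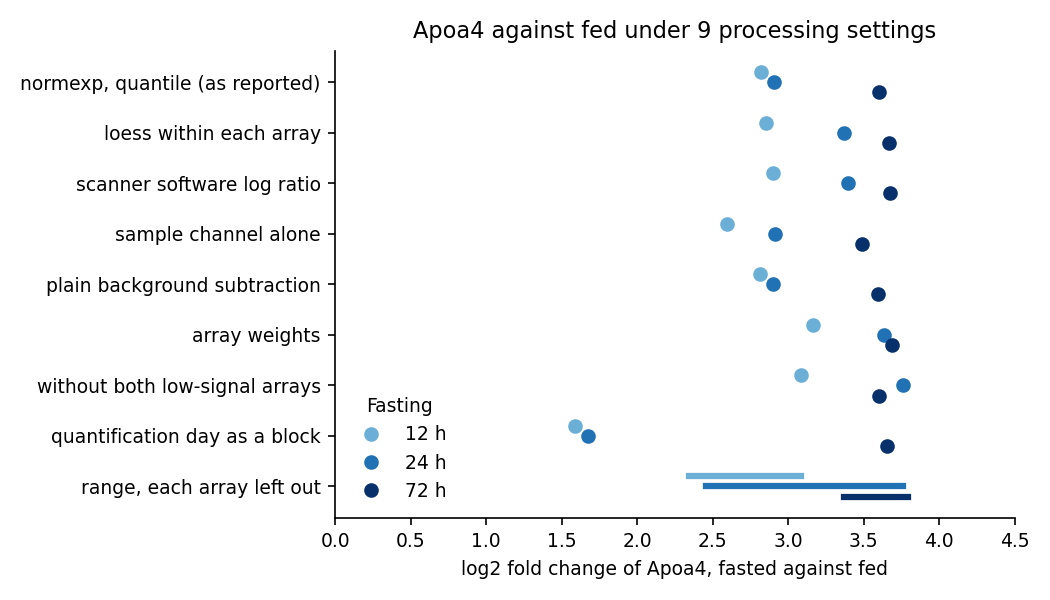
Difference of Apoa4 between fasted and fed liver, as log2 fold change (horizontal axis), under the reported processing, 7 alternatives and with each array left out in turn (vertical axis). Points are 12, 24 and 72 hours, and bars the range over the 12 arrays left out; the lowest values, 1.59 and 1.67, were obtained with the day of quantification as a block.

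Apoa1 and Apoe could not be compared between groups, because their spots were at the scanner's ceiling. In the sample channel both were saturated on 10 of 12 arrays, on all fed and 72-hour arrays and on 2 arrays each at 12 and 24 hours, with median signals of 65191 to 65203. The unsaturated arrays were the 2 of low signal. On these, Apoa1 read 5098 at 12 hours and 9065 at 24 hours, and Apoe read 4720.5 and 10906. The reference signal of Apoa1 was flagged as saturated on no array and ranged from 15534, on replicate 1 of the 12-hour group, to 62167. Some of its reference pixels were at the ceiling on fed replicates 2 (16.4%) and 3 (8.62%) and on 72-hour replicate 3 (25.4%). The reference signal of Apoe was saturated on all fed and all 72-hour arrays and read 43780.5 to 59653 on the other 6. No fold is given for either gene, since both groups of every comparison with fed were at the ceiling on 2 or 3 of their 3 arrays.

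**Figure D3:**
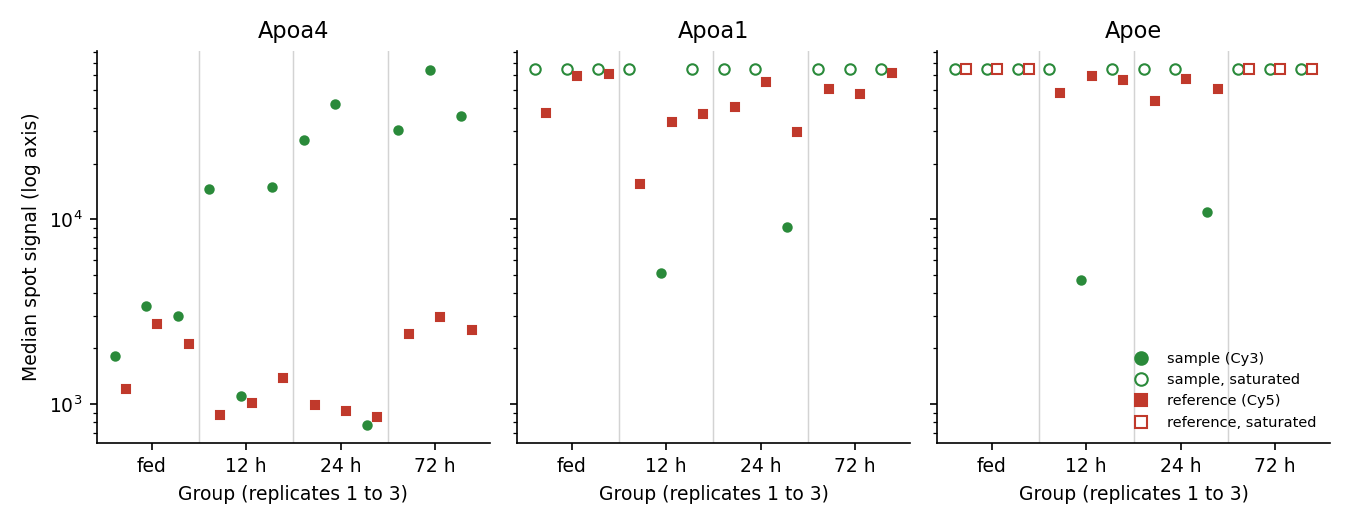
Median signal of the spots for Apoa4, Apoa1 and Apoe in the sample (Cy3, circles) and reference (Cy5, squares) channels (vertical log axis), for the 12 arrays by group, replicates 1 to 3 from left to right. Open symbols are saturated spots; Apoa4 has none in either channel, whereas Apoa1 and Apoe are saturated in the sample channel on 10 of 12 arrays.

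In the fit over all probes, 0 of the 2 passed against fed at 12, 24 or 72 hours (limma, adjusted p under 0.05 and at least 1.4-fold), and 0 had an unadjusted p under 0.05. Of all probes, the share that passed was 0.00497% at the first time, 0.00497% at the next and 0.00996% at the last, which were Mt1 each time and also Mt2 at 72 hours. With an unadjusted p under 0.01 in place of the adjusted one, the shares of all probes were 0.656%, 0.641% and 0.428%. Without the low-signal arrays they were 2.59%, 8.81% and 0.836% at the adjusted threshold. Neither Apoa1 nor Apoe passed under these other rules. These counts say nothing of whether their transcripts changed, since signals at the ceiling cannot rise.

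Beyond the name pattern, 7 further genes of apolipoprotein or high-density lipoprotein biology had a probe, 8 probes in all, out of a list of 22. None passed against fed (limma, 0 of 8 at each time), and at an unadjusted p under 0.05 there was 1 probe lower at 12 hours, 1 lower at 24 hours and 0 at 72 hours, beside 3.92%, 3.04% and 1.55% of all probes. The highest of them at 72 hours was Clu, encoding clusterin, also known as apolipoprotein J, with a log2 difference of 0.29 from fed. The lowest was the Apobec3 probe with feature number 7062, at -0.14, a cytidine deaminase that does not carry lipid. This probe, at -0.65 and -0.77 at 12 and 24 hours, was the one under 0.05 at both times. Without the low-signal arrays it fell at 12 and 24 hours, by 0.79 and 1.08 on the log2 scale (limma, adjusted p = 0.0484 and 0.0107). The other Apobec3 probe, feature number 17010, was at 0.21 and 0.26 and passed at neither. In this setting 1 of the 8 probes passed at each of these times, beside 2.59% and 8.81% of all probes. No 12- or 24-hour array shared a day of quantification with a fed array there, so that fasting and day cannot be told apart. Apobec1, the enzyme that edits apolipoprotein B mRNA, was at 0.09 at 72 hours. Apobr, the receptor for apolipoprotein B48, was at 0.20, and Apoo, a mitochondrial protein of the same name family, at -0.07.

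The wider lipoprotein pathway was taken from a list of 86 genes in 5 roles, of which 47 genes had a probe, 51 probes in all. Against fed, 0 of the 51 passed at any time (limma), and the smallest adjusted p was 0.956, 1.00 and 1.00 in time order. By an unadjusted p under 0.05, 1 probe was higher and 1 lower at 12 hours, 1 higher at 24 hours, and 1 higher and 1 lower at 72 hours. Of all probes, 3.92%, 3.04% and 1.55% had such a p. The median log2 difference over the 51 was -0.00, 0.01 and -0.01, and over all probes it was -0.01, -0.00 and -0.01. With the low-signal arrays left out, the median over the 51 was 0.11, 0.20 and -0.01, and over all probes -0.03, -0.01 and -0.01. With all arrays the pathway's probes lay around fed in both directions, 24, 26 and 24 of them above it.

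**Figure D4:**
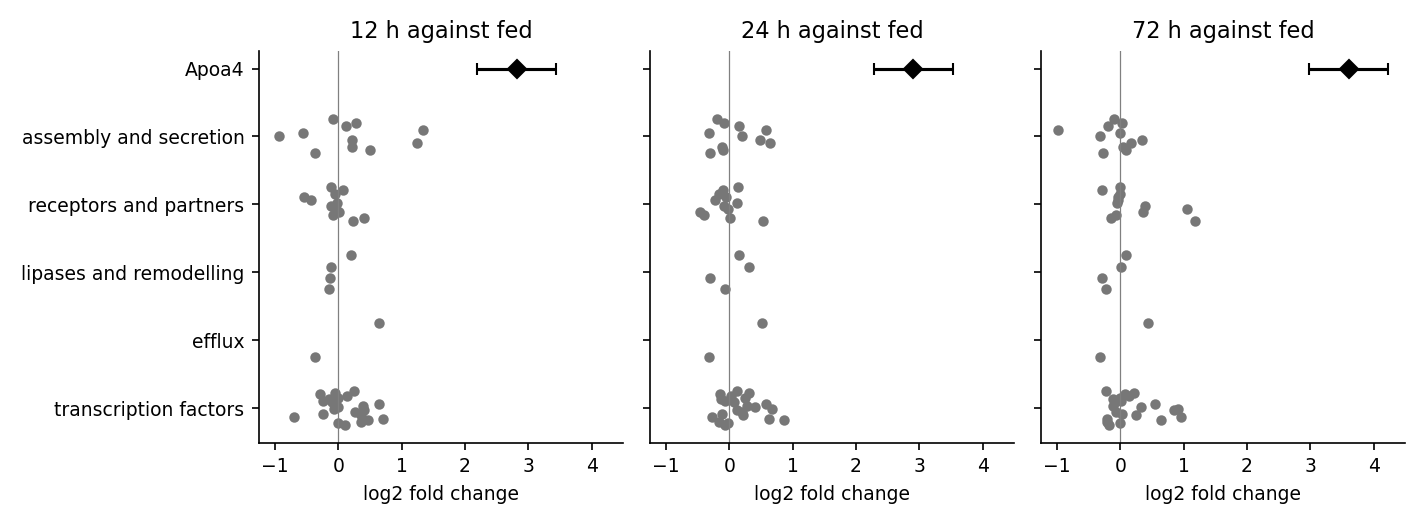
Log2 fold change against fed (horizontal axis) at 12, 24 and 72 hours (panels) for Apoa4 (diamond, with its standard error) and for the 51 probes of the lipoprotein pathway (grey points), by role (vertical axis). The pathway's probes lie between -0.99 and 1.34, and Apoa4 between 2.82 and 3.60.

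Among the genes of assembly and secretion, 11 probes were tested. At 72 hours the highest was Mttp, the transfer protein that loads lipid onto apolipoprotein B, with a mean log2 level of 0.19 ± 0.29 in fed and 0.53 ± 0.33 in 72-hour liver (SD, n = 3). The lowest was Plin2, a coat protein of lipid droplets, at 0.65 ± 0.52 and -0.34 ± 0.27 (SD, n = 3). Plin2 stood at 1.99 ± 0.78 at 12 hours and 1.23 ± 0.65 at 24 hours (SD, n = 3), on the other side of fed. Among receptors and their partners, 12 probes were tested, and Scarb1, the receptor for high-density lipoprotein, was highest at 72 hours with a log2 difference of 1.17.

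Of the lipases and remodelling genes, 4 had a probe. Lmf1, a factor in the maturation of lipases, was highest at 72 hours with a log2 difference of 0.09, and Mest was lowest at -0.29. The efflux genes were represented by Npc1, at 0.44, and Npc2, at -0.32, both of which move cholesterol out of lysosomes. Of the transcription factors, 22 probes were tested, from Nr2f1, an orphan nuclear receptor, at -0.23 to Atf4, a factor of the stress response, at 0.96. None of these values passed the test.

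More of the list passed without the pair of low-signal arrays, and these probes are named after their values were seen. In this setting no 12- or 24-hour array shared a day of quantification with a fed array. Fasting and day therefore cannot be told apart in the 12- and 24-hour values that follow. At 12 hours 3 of the 51 rose and 1 fell (limma), a share of 7.84% beside 2.59% of all probes. Acsl1, which activates long-chain fatty acids, rose 3.87-fold (limma, adjusted p = 0.00818). Plin2 rose 3.31-fold (limma, adjusted p = 0.0233) and Mttp 2.08-fold (limma, adjusted p = 0.0274). Cd36, a fatty-acid receptor, fell by 0.60 on the log2 scale (limma, adjusted p = 0.0440), whereas its value with all arrays was 0.41.

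At 24 hours 8 rose and 1 fell, a share of 17.6% beside 8.81% of all probes. These comprised Acsl1 at 2.16-fold and Mttp at 2.13-fold, and again Cd36, which fell by 0.63 on the log2 scale. They also comprised Npc1 at 2.01-fold and Pltp, the phospholipid transfer protein of plasma, at 1.47-fold. The other 4 were transcription factors, namely Cebpb at 2.20-fold, Foxo1 at 1.71-fold, Nr5a2 at 1.69-fold on 1 of its 2 probes and Cebpa at 1.56-fold. At 72 hours Foxo1 alone passed, at 1.88-fold (limma, adjusted p = 0.0339), a share of 1.96% beside 0.836% of all probes. Mttp and Acsl1 thus passed at both early times in this setting, and neither passed at 72 hours, the only time that shared a day with fed arrays there.

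The label of the tissue was examined through marker lists, because Apoa4 is a product of both liver and intestine. Of 12 hepatocyte markers 3 had a probe, of which Ttr was saturated on 4 arrays and 1 of the 2 probes of Trf on 7. These were the 2 hepatocyte probes measured on all arrays, both at the ceiling on all 3 fed arrays and on no 72-hour array, so that their fed values may be too low. At 72 hours their log2 differences from fed were -1.35 for Ttr and -1.11 for this probe of Trf. Neither passed with all arrays, and Ttr passed without the low-signal ones (limma, adjusted p = 0.0418). The summed normalised signal of these 2 probes was 106566 to 114220 in fed liver, 79227 to 91857 at 12 hours, 77612 to 87216 at 24 hours and 33354 to 72241 at 72 hours. The unsaturated hepatocyte probes lay above fed at 72 hours, Tdo2, a tryptophan-degrading enzyme, at a log2 difference of 0.86 and the other probe of Trf at 0.30, and neither passed.

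Of 22 intestinal markers 4 had a probe, namely Vil1, Anpep, Cdx2 and Muc13, and the other genes of the list, such as Fabp2, were not measured. The 4 were well above background on all 12 arrays by the scanner software's flag. Nearly all probes passed the filter on this flag, 20110 of the 20274 testable at 12 hours. The flag therefore does not show that these transcripts were present. The summed normalised signal of the 2 probes measured on all arrays was 2517 to 2879 in fed liver, 2310 to 3049 at 12 hours, 1868 to 2491 at 24 hours and 2991 to 3839 at 72 hours. These 2 probes were Vil1 and Cdx2, and without the low-signal arrays their highest sum was 2488 at 12 hours and 2449 at 24 hours. Cdx2, a transcription factor of intestinal epithelium, was at log2 differences of -0.81 and -0.88 from fed at 12 and 24 hours and passed only at 24 hours without the low-signal arrays (limma, adjusted p = 0.00826). The other 3 passed in no comparison with fed. Vil1 was at 0.39 and 0.15 and Anpep at 0.32 and 0.36 at these times, above fed, and Muc13 at -0.21 and -0.05. Vil1 was below fed without the low-signal arrays, at -0.56 and -0.45. At 72 hours the log2 differences from fed were -0.44 for Vil1, -0.39 for Anpep, -0.07 for Muc13 and 0.02 for Cdx2. The sums above use the sample channel alone, whereas these differences are of the ratio to the reference. The part of intestinal tissue in the Apoa4 signal was not tested beyond these values.

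For macrophages and leukocytes 8 of 14 markers had a probe, 9 probes in all, of which none passed. The summed signal of the 6 probes measured on all arrays was 3412 to 7412 in fed liver, 1546 to 3533 at 12 hours, 2590 to 4919 at 24 hours and 2674 to 2841 at 72 hours. Its lowest value without the low-signal arrays was 3131 at 12 hours and 3402 at 24 hours. The markers of pancreatic acinar cells, endothelium, stellate cells and fibroblasts, bile duct, adipocytes and erythroid cells had 1 to 5 probes each. Of these only Vim, of stellate cells and fibroblasts, passed in any comparison, at 72 hours without the low-signal arrays. It fell by 0.49 on the log2 scale (limma, adjusted p = 0.0451).

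The named probes whose pattern over the arrays was most like that of Apoa4 were found by Pearson's correlation of the log2 ratios. All arrays share the reference and most differences between them are those between fed and fasted, so that the correlations are a description without a test. Over 12 arrays and 4900 probes, Mt2 was first at r = 0.92. It was followed at 0.90 by Tfb2m, a mitochondrial transcription factor, and Oat, ornithine aminotransferase. Son, a splicing protein, and Prodh, proline dehydrogenase, came next at 0.89. The log2 differences of Mt2 from fed were 3.61, 3.17 and 3.80, and those of Oat 1.31, 1.53 and 1.61.

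Over the 10 arrays without the low-signal ones and 5219 probes, the first 5 were other genes. Tango2, Hsd17b10, a mitochondrial dehydrogenase, and Slc38a4, an amino-acid transporter, were at 0.96. Epb41, a protein of the membrane skeleton, and Cct4, a subunit of a chaperonin, were at 0.95. Without the low-signal arrays the log2 differences of Hsd17b10 from fed were 1.34, 1.96 and 1.66 and those of Slc38a4 1.31, 1.34 and 1.42. Which genes head the order thus depended on those 2 arrays.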

How the data were processed

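Gene expression was measured on 12 two-colour Agilent 60-mer arrays, assigned to groups by their deposited titles. The scanner files were deposited with unnormalised intensities, of which the median foreground and median local background per spot and channel were used. They also hold log10 ratios of reference over sample, dye-normalised by the scanner software per the file headers. The series table was deposited as these log10 ratios with the sign turned (243360 values, largest difference 4.92e-08) and was an alternative. The authors worked on background-subtracted, quantile-normalised medians and a Split-Factor ANOVA, for which limma stands in here.

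Control (1075) and retired (91) spots among 21446 were left out. Signals were corrected with normexp (offset 50), quantile-normalised over 24 channels and turned into log2 ratios (sample to reference). Outlier spots by the software's flags were set to missing (at most 24.7% of an array, on fed replicate 2). Probes entered a test if the software flagged the Cy3 spot well above background throughout 1 group or more. limma 3.58.1 in R 4.3.3 was fitted with the 4 groups as design, with calls made at 1.4-fold or more and a p under 0.05 after Benjamini-Hochberg adjustment over all probes. The labels do not say more of the pools than their liver numbers. The p-values measure the spread between arrays, which holds that between pools together with differences in array brightness and day.

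Of 9196 probes with a gene name, 8457 were brought to current symbols through RefSeq (GRCm38.p6), 4326 by symbol, 4126 by synonym and 5 by accession. Members, lists, motifs and tests were chosen with earlier results of these data known. In each role the probes that passed were to be named, or otherwise the highest and lowest at 72 hours. The lowest probe of 1 role is not reported here. Promoter sequences are those of RefSeq. The fit was tested on simulated data for the comparison of 72 hours with fed (20081 probes). It recovered 52%, 76%, 92% and 98% of changes of 1, 2, 3 and 4 on the log2 scale. The simulation drew independent noise for each probe and array, so it held no error shared by the probes of an array or a day. These shares may therefore be too high for the real data, where Ctsl at 4.34 and Got1 at 4.06 did not pass at 72 hours. Alternatives were other normalisations, background subtraction, outlier spots kept, no filter, array weights, arrays left out, and the day or the replicate number as a block. The number and brightness of the arrays limit the precision.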

Additional observations from a re-analysis of the deposited data

How the results depend on the processing

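The rise of Apoa4 over fed kept its direction under every alternative run, from 1.59 to 3.17 at 12 hours, 1.67 to 3.76 at 24 hours and 3.49 to 3.69 at 72 hours on the log2 scale. At 12 hours, 1.59 with the day of quantification as a block was the value that moved beyond 1 SD. The 24-hour value went from 2.90 to 1.67 in that setting, which lay within the larger SD of its own group, 1.48 against 0.82 at 12 hours. Leaving out each array in turn gave 2.34 to 3.09, 2.45 to 3.76 and 3.37 to 3.79. The steps between fasting times had no settled sign. From 12 to 24 hours the range over arrays left out was -0.36 to 0.94, below 0 without 12-hour replicates 2 or 3 or 24-hour replicates 1 or 2. From 24 to 72 hours it was -0.16 to 1.15, and -0.16 without both low-signal arrays, the same arrays as without 24-hour replicate 3 for this difference. With the day of quantification as a block this step was 1.98, with a standard error of 0.81 (limma, adjusted p = 0.138). No 24-hour array shared a day with a 72-hour array, so that this value joins them only through the fed arrays. Its link from 24 hours to fed rests on the low-signal arrays and fed replicate 1 alone. Neither step passed under any alternative. Of Apoa1 and Apoe, 1 probe (Apoa1 at 12 hours, upward) passed with array weights, and 0 under the other alternatives at 12, 24 and 72 hours; the cause was not tested. Their fold changes were not recomputed because of saturation.

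Deviations of same-numbered arrays from their group means correlated at -0.65 to 0.63 over 11150 probes, with no common sign. Both ends of this range come from the 12- and 24-hour groups, which each hold a low-signal array. These correlations therefore cannot decide whether the replicate numbers pair the arrays. With the replicate block, the count for Apoa1 and Apoe stayed 0 and the Apoa4 values were 2.82, 2.90, 3.60, 0.09 and 0.70, as without it.

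Counts over all probes changed by much more than 1.5 times. Without the low-signal arrays, those at 12 and 24 hours against fed cannot be told apart from a difference between days. With the day as a block, the counts at 12 and 24 hours against fed rest on the low-signal arrays and fed replicate 1. These are the only early and fed arrays that shared a day. No 24-hour array shared a day with a 72-hour array in any setting. At 12 hours 1 probe passed, against 522 without the low-signal arrays, 1916 with array weights, 4640 with the day as a block and 91 with the consensus of direct and across-array tests. At 24 and 72 hours 1 and 2 passed, against 1774 and 168 without the low-signal arrays, 2113 and 822 with array weights, 2397 and 4 with the day as a block, and 79 and 60 with the consensus. In the steps from 12 to 24 and 24 to 72 hours 0 and 0 passed, against 0 and 262, 181 and 856, and 0 and 1833 in the first 3 of these settings. Saturation limits Apoa1 and Apoe, and the pixels of Apoa4 at the ceiling limit its value at 72 hours.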
